A study of Mus musculus with 4 samples.

Results

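The genes described here build elastic fibres and microfibrils, or the fibronectin and SPARC matrix around them, in the tendons of male and female mice. They were taken as a list of 9 gene symbols: Eln, Fbn1, Fbln1, Fbln5, Efemp1, Mfap4, Mfap5, Fn1 and Sparc. A gene was given a value where the platform annotation paired a probe set with its symbol alone, and 8 of the 9 had 1 such probe set each, among 22180 genes with a value in the whole series. Fbn1 was not analysed here. Achilles and plantaris tendons of wild-type C57Bl/6 mice, an inbred laboratory strain, were taken at 4 months of age without any treatment. By their labels the groups differ in sex alone, and they were measured on a Mouse Gene ST 2.1 array strip, with 2 arrays from males and 2 from females. Both tendons of an animal were combined before RNA was isolated, and the labels give 3 RNA wells per sample without saying how these were joined. Whether the samples of a sex are separate mice is not stated in the labels, so the p-values given here reflect variation among these arrays, part of which may be technical.

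An elastic fibre has a core of crosslinked elastin laid down on a sheath of microfibrils, which are strings of fibrillin with associated glycoproteins. Fibulins bridge elastin, microfibrils and the crosslinking enzymes, and cells assemble fibrillin on a scaffold of fibronectin. In tendon the elastic fibres are a sparse component beside collagen, found around the cells and between fascicles, and they let the tissue stretch and recoil. Elastin is made mainly during growth and is turned over very slowly in the adult.

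The labels name the cells as tenocytes, whereas whole tendon was homogenised. Of the 10 tendon cell markers 10 had a mean above the median signal of every array, which lay between 2.27 and 2.30 on the log2 scale, and their median per array ran from 5.61 in female 1 to 6.35 in female 2. Skeletal muscle markers, led by the actin gene Acta1 and the troponin gene Tnnt3, had a median between 9.13 and 10.10 per array, so the samples also held muscle RNA. In such bulk samples, fewer cells of a type and less RNA per cell cannot be told apart. Values are log2 RMA values, a background-corrected and quantile-normalised probe summary. A value near the array median cannot be told from background, and a rank among genes orders array signals, which depend on the probes as well as on the RNA, so ranks do not order transcript amounts.

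The genes lay at very different places in the order of array signals. Fn1, which encodes fibronectin, was at rank 110 of 22180 genes, and Sparc, which encodes a collagen-binding glycoprotein of the matrix, was at rank 267. Mfap5, the gene of a small microfibril glycoprotein that binds fibrillin, was at rank 514. The fibulin genes followed, with Efemp1 at rank 2244, Fbln1 at 3318 and Fbln5 at 6366. Mfap4, which encodes a microfibril-associated protein that binds elastin and collagen, was at 9066. Eln, the gene of tropoelastin, was at 11528, so 48.0% of genes gave a lower mean signal. For 7 of the 8 genes the value lay above the array median on every array, and Eln lay above it on 3.

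**Figure D1:**
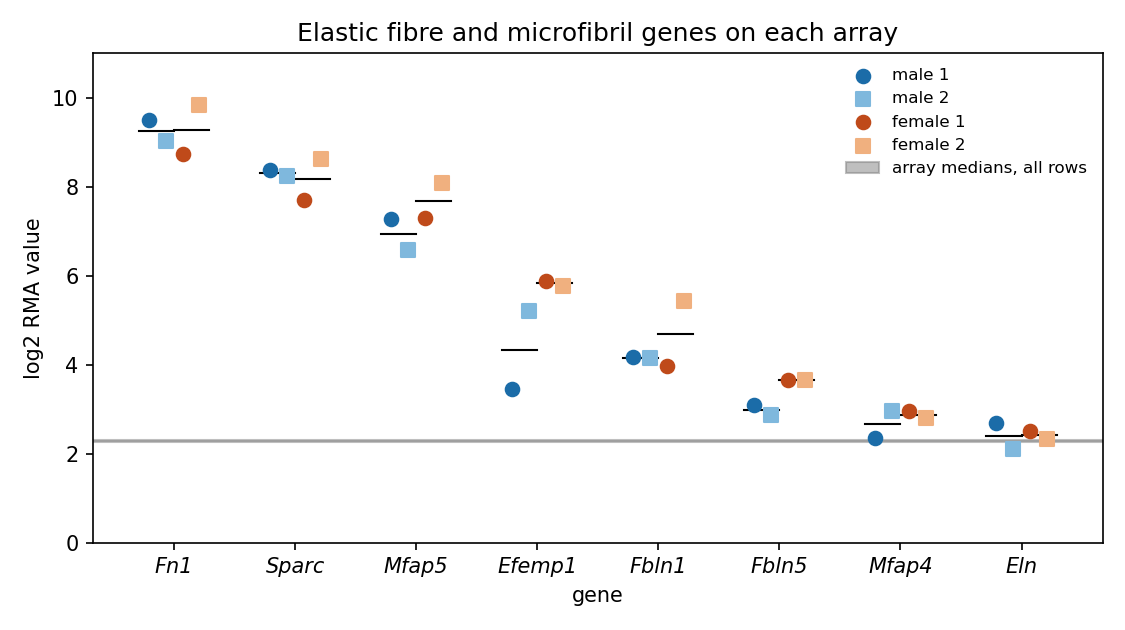
Log2 RMA value (y axis) of the 8 genes (x axis) on each of the 4 arrays, with black lines at the mean of each sex and a grey band at the array medians over all rows. Fn1 and Sparc sit highest, Eln lies at the grey band, and Efemp1 has 1 array, male 1, far below the other arrays.

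The elastin core was represented by Eln (probe set 17453454). Its log2 value was 2.70 in male 1, 2.10 in male 2, 2.51 in female 1 and 2.32 in female 2. The sexes overlapped, and the male arrays held both the highest and the lowest value. The male mean was 2.40 ± 0.42 (SD, n = 2) and the female mean 2.42 ± 0.14 (SD, n = 2). Signal at this level was not told from background, so no difference is read from it. Its rank ran from 9293 in male 1 to 14343 in male 2.

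The fibulin genes varied between arrays in different ways. Efemp1 (probe set 17247948) encodes fibulin-3, a short fibulin of basement membranes and elastic tissue. Its log2 value was 3.46 in male 1, 5.20 in male 2, 5.88 in female 1 and 5.77 in female 2. Male 1 stood far below the other arrays, and male 2 lay closer to the females than to male 1. The male mean was 4.33 ± 1.23 (SD, n = 2) and the female mean 5.83 ± 0.08 (SD, n = 2). The log2 difference, female minus male, was 1.50 (SE 0.60, 95% interval -0.12 to 3.11), a 2.82-fold higher female signal that did not pass the threshold (limma adjusted p = 0.969). Without male 1 the difference was 0.63, and without male 2 it was 2.37. The SD over the 4 arrays was 1.12, and among 1424 genes with a mean within 0.5 of that of Efemp1, 98.3% had a smaller one. That spread rested on male 1, without which the SD was 0.37.

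Fbln5 (probe set 17283380) encodes fibulin-5, which binds tropoelastin and cell surface integrins and is needed to assemble elastic fibres. Its log2 value was 3.10 in male 1, 2.86 in male 2, 3.65 in female 1 and 3.65 in female 2. Both female arrays lay above both male arrays, and the female arrays were equal to the second decimal. The difference was 0.67 (SE 0.16, 95% interval 0.23 to 1.10), a 1.59-fold higher female signal (limma adjusted p = 0.969). Leaving out each array in turn gave 0.54 to 0.79, which cannot change sign where the sexes do not overlap. Its SD over arrays, 0.40, was wider than that of 73.2% of the 4004 genes of like level.

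Fbln1 (probe set 17313811) encodes fibulin-1, a fibulin that binds fibronectin and is found in the core of elastic fibres. Its log2 value was 4.18 in male 1, 4.14 in male 2, 3.96 in female 1 and 5.43 in female 2. Female 2 stood apart above the other arrays, whereas female 1 was the lowest of the 4. The difference of 0.54 (SE 0.52) therefore turned to -0.20 without female 2 and was 1.28 without female 1. The root-mean-square difference between values centred on their own means was 0.53 for Fbln1 and Fbln5, 0.82 for Fbln5 and Efemp1, and 0.97 for Fbln1 and Efemp1. That measure grows with the size of the changes as well as with a difference in their shape. In Fbln5 and Efemp1 both females lay above both males, which was not so for Fbln1.

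The microfibril-associated glycoprotein genes differed in level and in pattern. Mfap5 (probe set 17462663) was at 7.26 in male 1, 6.58 in male 2, 7.29 in female 1 and 8.07 in female 2 on the log2 scale. The sexes did not overlap, but male 1 and female 1 lay almost level. The difference was 0.76 (SE 0.38, 95% interval -0.24 to 1.77) and did not pass the threshold (limma adjusted p = 0.969). It was 0.37 without female 2, 0.42 without male 2 and 1.15 without female 1. Mfap4 (probe set 17250585) was at 2.34 in male 1, 2.97 in male 2, 2.95 in female 1 and 2.79 in female 2. Its male 1 value lay at the array medians, and the other arrays were close to each other. The difference of 0.22 (SE 0.26) turned to -0.093 without male 1.

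The fibronectin and SPARC genes gave the highest signals and followed each other over the arrays. Fn1 (probe set 17224071) was at 9.48 in male 1, 9.02 in male 2, 8.73 in female 1 and 9.83 in female 2. The female arrays enclosed both male arrays, so the sexes overlapped fully. The difference was 0.03 (SE 0.43, 95% interval -1.11 to 1.17), and it was 0.58 without female 1, -0.52 without female 2 and -0.20 without male 2. It was -0.032 after quantile normalization once more. Sparc (probe set 17262990) was at 8.36 in male 1, 8.23 in male 2, 7.71 in female 1 and 8.61 in female 2. As with Fn1, female 1 was lowest and female 2 highest, and the difference of -0.14 (SE 0.34, 95% interval -1.05 to 0.77) was 0.31 without female 1. Of the 28 pairs of genes, Fn1 and Sparc had the most similar centred profiles, with a root-mean-square difference of 0.16. Genes outside the list lay nearer to Fn1, such as Snora23 at 0.020, so the closeness is not particular to this pair.

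**Figure D2:**
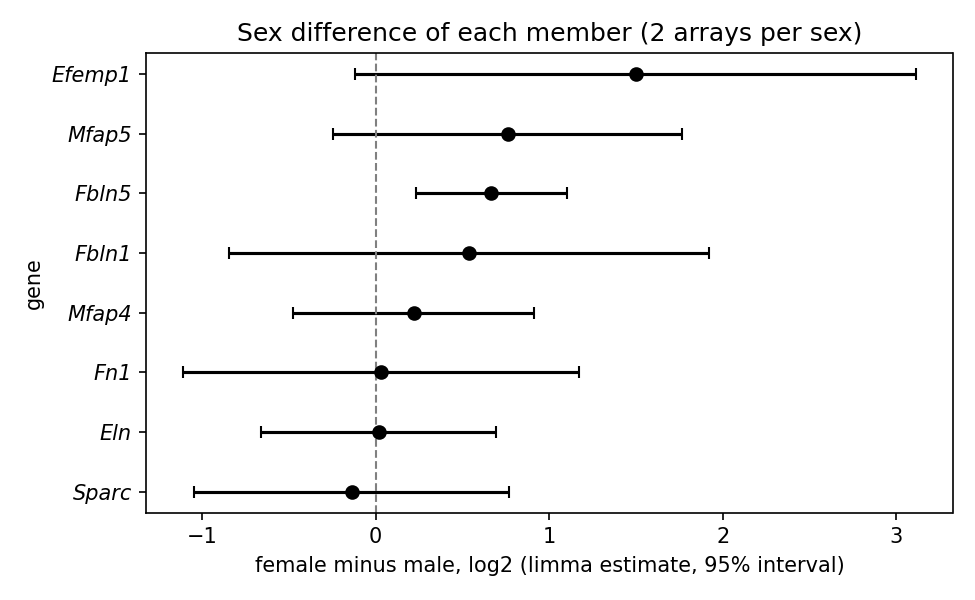
Log2 difference, female minus male (x axis), of each gene (y axis), with points at the limma estimate and bars for the 95% interval. The interval of Fbln5 alone, 0.23 to 1.10, does not reach 0 before adjustment over all probe sets, and the interval of Efemp1 is the widest.

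Between the sexes, limma called 0 of the 8 genes, where 0.0% of the 23521 probe sets tested were called at an adjusted p under 0.05. At an unadjusted p under 0.05 there was 1 of 8, Fbln5, beside 4.49% of all probe sets, and it was higher in females, as were 2.64% of all probe sets under that p. The sexes did not overlap for 3 of the 8 genes, Efemp1, Fbln5 and Mfap5, beside 33.3% of all probe sets, a share near the background. All 3 were higher in females, where 15.8% of all probe sets did not overlap in that direction. Of the 8 differences, 7 were above 0 and 1 was below, with a median of 0.38, while 48.8% of all probe sets were above 0 and their median was -0.0062. The median over the 8 genes was 0.62 without female 1 and 0.21 without female 2. With 2 arrays against 2, an exact permutation test of a single gene cannot go below a two-sided p of 0.333, so precision is limited by the number of arrays.

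The arrays differed within a sex as well as between the sexes. In female 2 the 8 genes lay a median of 0.47 above their own means over the 4 arrays, and 7 of the 8 lay above. The same median was 0.05 in female 1, -0.13 in male 1 and -0.27 in male 2. Female 2 held the highest value for 4 genes, Fn1, Sparc, Fbln1 and Mfap5, beside 27.3% of the 12450 genes with a mean above every array's median. The order with female 1 lowest and female 2 highest was shared by 3 genes, Fn1, Sparc and Fbln1, and was found in 8.05% of those 12450 genes. That order was chosen after the values were seen, so its share among the 8 genes is a description. It was not particular to them: Bgn, Fbln2, Fstl1, Fmod, Col1a1 and Col3a1 showed it too, whereas Dcn and Col1a2 did not. Of the tendon cell markers, 5 of 10 were lowest in female 1, beside 21.3% of those 12450 genes. In a separate count, 6 of 10 were highest in female 2. The other 4, Scx, Tnmd, Mkx and Col1a2, were highest in male 1, and Tnmd was lowest in female 2.

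**Figure D3:**
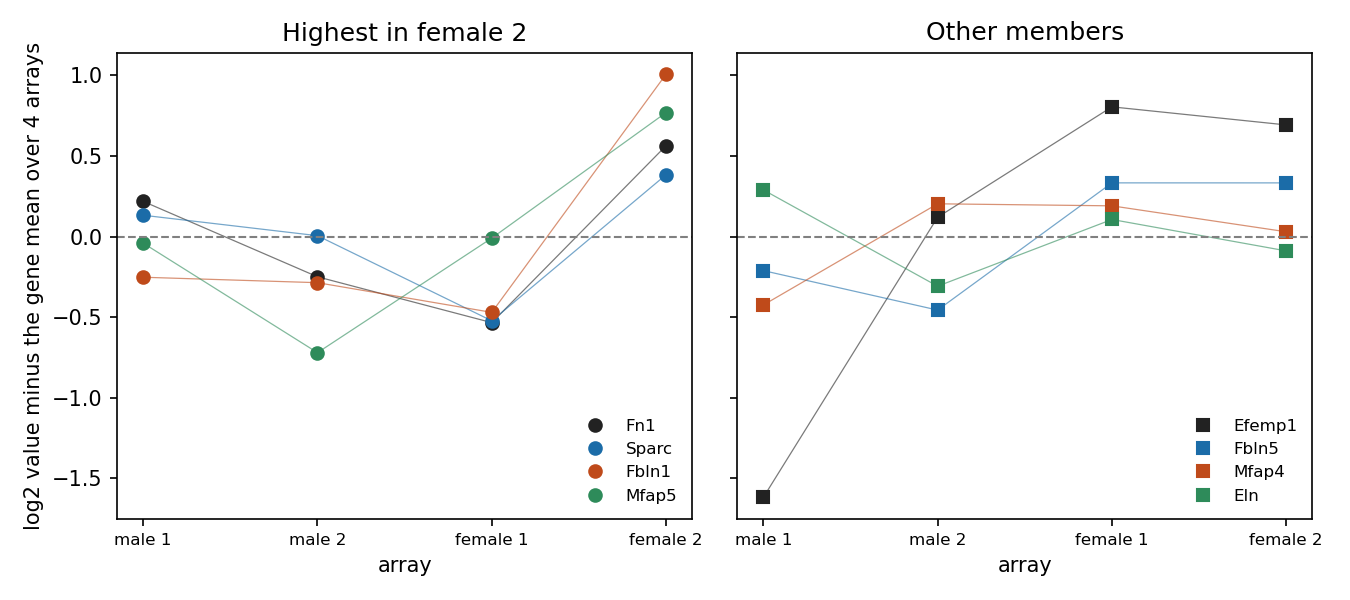
Log2 value minus the gene's mean over the 4 arrays (y axis) on each array (x axis), on the left for the 4 genes highest in female 2 and on the right for the other genes, with thin lines joining the points of a gene. Fn1, Sparc and Fbln1 are lowest in female 1 and highest in female 2, and Efemp1 lies far below its mean in male 1.

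Several lists of markers of other cells had many of their extremes in female 2, which held the highest value for 27.3% and the lowest for 25.0% of the 12450 genes above. Of the macrophage markers 9 of 12 were highest there, and the log2 of their summed signal was 8.66 and 8.87 in the males, 8.67 in female 1 and 9.64 in female 2. Lyz2 and Mrc1 had the highest mean signals of that list. Each of the 12 had a mean above every array's median, but Cd14, at 2.31, lay near these medians. Aif1 went the other way, highest in male 1 at 3.71 and lowest in female 2 at 2.69. For antigen-presenting cell markers, led by H2-Ab1 and H2-Aa, 4 of 5 were highest in female 2. Their summed signal was 8.63 there, 6.45 in female 1, and 7.86 and 6.04 in males 1 and 2. The sum in male 1 came mainly from H2-Ab1, at 7.72, with H2-Aa at 2.25 and H2-Eb1 at 2.58 on that array. The defining markers Ciita and Itgax of that list had values near the array medians. General fibroblast markers, led by Dpt and Cd34, were highest in female 2 in 6 of 7, but their summed signal was highest in male 1, at 9.81, and was 8.83 in male 2, 9.11 in female 1 and 9.51 in female 2. Skeletal muscle markers were lowest in female 2 in 9 of 12, with a summed signal of 13.05 there against 13.60 to 13.66 elsewhere. The lowest value lay in male 1 for Myh2 and Myh7 and in male 2 for Myh1. In female 2 Myh4, Actn3 and Mybpc2 were at 7.35, 6.68 and 6.20, against at least 10.20, 9.41 and 8.62 elsewhere. By contrast, Acta1 was at 11.09 in both female 2 and male 1, so the fall was uneven over the list. The part of these cells in the values of Fn1, Sparc, Fbln1 and Mfap5 was not tested.

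**Figure D4:**
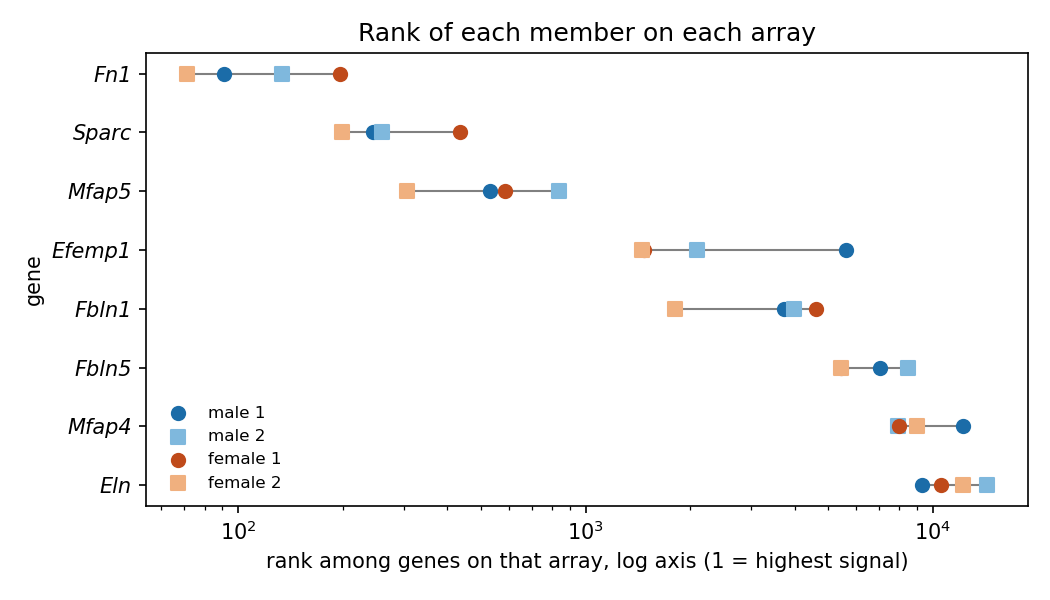
Rank of each gene (y axis) among 22180 genes on each array (x axis, log scale, 1 is the highest signal), with grey lines from the best to the worst rank. Fn1 lies between 71 and 196, and Efemp1 runs from 1449 in female 2 to 5611 in male 1. A move in rank depends also on how many genes lie at that level.

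Ranks showed where each gene lay among all genes on each array. A move in rank depends also on how many genes lie at that level, with 94 genes within 0.5 of the mean of Fn1 and 8123 for Eln. Fn1 ran from rank 71 in female 2 to 196 in female 1, Sparc from 199 to 434 and Mfap5 from 306 in female 2 to 838 in male 2. Fbln1 moved from 1806 in female 2 to 4595 in female 1. Efemp1 lay between 1449 and 2089 on 3 arrays and at 5611 in male 1. By SD over the 4 arrays, Efemp1 was wider than 99.4% of all genes, Fbln1 than 95.9%, Mfap5 than 94.3% and Fn1 than 89.7%. Eln was at 64.1% and Mfap4 at 70.8%. These spreads rested on 1 array each for some genes. The SD of Fbln1 went from 0.68 to 0.12 without female 2, and that of Mfap4 from 0.29 to 0.097 without male 1. The SD of Mfap5 went from 0.61 to 0.40 without female 2 and to 0.46 without male 2. For Sparc the SD of 0.38 was wider than that of 57.0% of genes of like level, and it was 0.19 without female 1.

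For the 4 genes whose values spanned more than 1 on the log2 scale, the genes with the most similar centred values over the 4 arrays were looked up among 12449 others. For Efemp1 they were Cidec, a lipid droplet gene of adipocytes, at a root-mean-square difference of 0.069, then 9030025P20Rik at 0.135 and Exosc10 at 0.138. For Fn1 they were Snora23 at 0.020, Mt2, a metallothionein gene, at 0.029 and Cpt1a at 0.029. Fbln1 was nearest to Myo1d (0.046), Atp2b4 (0.060) and Mtpn (0.062), and Mfap5 to Zfp108 (0.061), Tmem160 (0.067) and Cpq (0.072). With 4 arrays, close profiles are easily found among so many genes, and these are given as a description.

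RefSeq promoter sequences (GRCm38.p6) matched 4 of the 8 genes, Efemp1, Fbln5, Fbln1 and Sparc. These 4 are shown because the sequences held no entry for Eln, Mfap4, Mfap5 and Fn1. Each run is the 250 bases before the annotated start that lies farthest upstream, 5′ to 3′ on the strand of the gene, with motif matches in capitals. The regions are chr11:28852955-28853204 (plus strand) for Efemp1, chr12:101819120-101819369 (minus strand) for Fbln5, chr15:85205699-85205948 (plus strand) for Fbln1 and chr11:55420081-55420330 (minus strand) for Sparc.
Efemp1: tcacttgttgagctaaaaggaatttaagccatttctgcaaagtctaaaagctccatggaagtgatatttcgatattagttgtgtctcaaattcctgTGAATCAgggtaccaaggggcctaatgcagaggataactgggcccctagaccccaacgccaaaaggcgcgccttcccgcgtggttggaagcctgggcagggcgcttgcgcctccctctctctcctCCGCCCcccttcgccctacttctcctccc
Fbln5: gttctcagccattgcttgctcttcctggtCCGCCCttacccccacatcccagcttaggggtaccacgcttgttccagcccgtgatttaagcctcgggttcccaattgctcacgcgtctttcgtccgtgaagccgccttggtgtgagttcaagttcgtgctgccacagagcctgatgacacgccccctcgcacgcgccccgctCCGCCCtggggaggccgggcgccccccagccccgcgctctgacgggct
Fbln1: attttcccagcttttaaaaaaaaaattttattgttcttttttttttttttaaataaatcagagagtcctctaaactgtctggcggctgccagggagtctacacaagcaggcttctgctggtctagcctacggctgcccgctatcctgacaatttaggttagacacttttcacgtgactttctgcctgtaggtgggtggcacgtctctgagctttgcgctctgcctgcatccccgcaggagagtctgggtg
Sparc: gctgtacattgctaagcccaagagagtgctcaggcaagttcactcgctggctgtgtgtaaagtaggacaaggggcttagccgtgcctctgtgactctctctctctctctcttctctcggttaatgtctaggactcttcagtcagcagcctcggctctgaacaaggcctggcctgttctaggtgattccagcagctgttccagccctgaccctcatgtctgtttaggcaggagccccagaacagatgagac

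These motifs were searched on both strands: the TATA box TATAAA, the GC box GGGCGG, the AP-1 motif TGANTCA and the TEAD motif GGAATG. Fbln5 held GC boxes that begin 221 and 48 bases before its start, and Efemp1 held a GC box at 29 and an AP-1 motif at 154 bases. No match overlapped another, and the windows of Fbln1 and Sparc held none of these letters. Of 32851 promoters in the table, 32.7% held the GC box, 6.75% the AP-1 motif, 12.4% the TATA box and 12.6% the TEAD motif in the same window. The G and C share was 65.2% for Fbln5, 54.0% for Sparc, 53.6% for Efemp1 and 46.4% for Fbln1, where the median promoter had 52.4%. A match describes the letters and is not shown to be a site.

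Partner genes of the microfibril were compared from a list, and limma called 0 of 14 measured members in either direction. Differences were above 0 for 5 and below 0 for 9, with a median of -0.12. Adamtsl4, which encodes a fibrillin-binding ADAMTS-like protein, differed by 0.41 (SE 0.16), and Ltbp4, a latent TGF-beta binding protein needed for elastic fibre assembly, by 0.33 (SE 0.33). Ltbp2, chosen after its values were seen, was at 5.70 in male 1, 4.22 in male 2, 3.66 in female 1 and 5.66 in female 2. It was high in 1 array of each sex. Fbn2, the other fibrillin gene of the list, had a value below the median of each array. Of the fibulins and other proteins at the elastic fibre surface, 0 of 12 were called, with 6 above 0, 6 below and a median of 0.02. Emilin2 and Mmrn2, of the EMILIN family of elastic fibre and vessel wall proteins, differed by -0.73 (SE 0.58) and -0.73 (SE 0.50).

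Enzymes that crosslink or cut elastin were likewise not called, with 0 of 5 and 0 of 11. Lox, the lysyl oxidase that crosslinks elastin and collagen, was at 3.82 in male 1, 3.56 in male 2, 4.32 in female 1 and 6.36 in female 2, a difference of 1.65 (SE 0.71). Both females lay above both males, and female 2 stood far above female 1. Loxl3, a related oxidase gene, differed by 0.32 (SE 0.40). The elastin-degrading cathepsin gene Ctss was at 5.15 in male 1, 6.13 in male 2, 6.43 in female 1 and 7.65 in female 2, a difference of 1.40 (SE 0.54). Ctss is abundant in macrophages and was highest in the array where macrophage markers were highest; their part in this value was not tested. Ctsk, the collagen- and elastin-cutting cathepsin K gene, differed by 0.35 (SE 0.55). Mmp12, macrophage elastase, had a value below the median of each array.

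Receptors and assembly partners of fibronectin gave 0 of 11 called, 7 above 0, 4 below and a median of 0.02. The focal adhesion genes Vcl and Tln1 differed by 0.46 (SE 0.16) and -0.31 (SE 0.20). Itga5, which encodes the alpha chain of the classical fibronectin receptor, differed by -0.08 (SE 0.21). In the SPARC family 0 of 7 were called, with 2 above 0, 5 below and a median of -0.15. Smoc1 and Smoc2, secreted calcium-binding relatives of SPARC, differed by 0.41 (SE 0.37) and -0.40 (SE 0.47). TGF-beta and BMP ligands, which microfibrils hold in the matrix, gave 0 of 7 called, with 5 above 0, 2 below and a median of 0.14. Bmp4 differed by 0.80 (SE 0.25) and Tgfb2 by -0.67 (SE 0.15), and neither passed the threshold (limma adjusted p = 0.969 for both).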

How the data were processed

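The authors deposited a table of log2 values with a column for each of the 2 male and 2 female arrays. RMA and the package oligo are listed in the submitters' processing notes; their versions, the level of probe summary and the build are not given in the sources used here. That the scale is log2 follows from RMA and from the range of values, 0.517 to 11.933. Of 41345 rows, 23521 had exactly 1 symbol in GEO's platform annotation, 1814 several and 16010 none. Female minus male was fitted to the 23521 probe sets with limma 3.58.1 in R 4.3.3 (lmFit, eBayes), adjusted by Benjamini-Hochberg over all of them, with a threshold of 0.05. The procedure was tested on simulated data. In these, 200 probe sets were changed at once by 1, 2, 4 or 6, with spread drawn from the fitted prior. It called 0.3% of simulated log2 differences of 1, 51.9% of those of 2 and 91.1% of those of 4. With fewer changed probe sets, or a gene of wider spread, the adjusted threshold is harder to pass. These shares therefore do not give the chance of a call for a single gene here. A gene that was not called is therefore not shown to be equal in the sexes. The probe set of highest mean represented a gene, and no further normalization was applied. Intervals are 95% intervals of that fit. Replicate arrays were not copies of each other: of 23521 probe sets 27 had the same value in both males and 29 in both females, and the median absolute difference was 0.212 and 0.208.

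The members and lists were chosen with earlier results of these data known. Lists covered microfibril scaffold, fibulins and elastic fibre surface, crosslinking, elastin-degrading proteases, fibronectin receptors, SPARC family, TGF-beta and BMP ligands, and markers of tendon cells, fibroblasts, macrophages, antigen-presenting cells, adipocytes, endothelium, smooth muscle and pericytes, skeletal muscle, cartilage and Schwann cells. Named from each pathway list were the 2 genes of widest difference with a mean above every array's median, and from each cell type list the 2 of highest mean; other names were chosen after their values were seen. Alternatives were the mean over a gene's probe sets, all rows, a prior with trend and robust estimation, a filter on dim probe sets, centring on array medians, quantile normalization once more, the replicate number as a block, and leaving out each array. Figures were drawn with matplotlib 3.10.9.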

Additional observations from a re-analysis of the deposited data

How the results depend on the processing

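The count of genes called was 0 under the 11 alternatives run, as was the count over all probe sets tested in each, so this 0 says nothing particular to these genes. Of the 7 alternatives that keep all arrays, 5 leave a difference identical by construction; under the other 2, 15 of 16 differences kept their direction and Fn1 turned from 0.03 to -0.032 after quantile normalization once more. The median difference over the 8 genes was between 0.21 and 0.62 when 1 array was left out, against 0.38. Leaving out 1 array gave -0.28 to 0.32 for Eln, -0.20 to 1.28 for Fbln1, -0.093 to 0.53 for Mfap4, -0.52 to 0.58 for Fn1 and -0.59 to 0.31 for Sparc, and the direction turned in each of these. It gave 0.54 to 0.79 for Fbln5, 0.63 to 2.37 for Efemp1 and 0.37 to 1.15 for Mfap5. The replicate numbers are taken as names alone: the deviations of male 1 and female 1 from their sex means had a correlation of -0.07 over 13176 probe sets, which is not over 0.1. With the replicate block the median was 0.38 and the count 0, but in this balanced design a block cannot move a difference. Where a sex was left with 1 array, its spread was taken from the other sex. Signal near the array medians limits what can be said of Eln and Mfap4.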

Other observations

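Efemp1 was lowest in male 1, and so were most listed markers of 2 cell types. Of the adipocyte markers, led by Fabp4 and Adipoq, 7 of 8 were lowest in male 1, beside 31.7% of the 12450 genes with a mean above every array's median, and the log2 of their summed signal was 10.21 there, 10.68 in male 2, 10.66 in female 1 and 10.83 in female 2. That sum came mainly from Fabp4, at 10.06 in male 1 and between 10.395 and 10.54 elsewhere. Cidec followed Efemp1 closely, at 3.36, 4.96, 5.75 and 5.71 in male 1, male 2, female 1 and female 2. Plin1, the remaining adipocyte marker, was at 5.19, 4.96, 4.81 and 5.30 on the arrays in the same order. Of the endothelial markers, led by Cdh5 and Pecam1, 7 of 8 were also lowest in male 1, beside that same 31.7%. Their summed signal was 7.26 there and 7.81 to 8.14 on the other arrays. Cldn5, the remaining marker of that list, was highest in male 1, at 4.53 there and 3.16 to 3.79 elsewhere. Emcn, an endothelial sialomucin gene chosen after its values were seen, was at 2.32 in male 1, which is near the array medians, and at 4.70 to 5.12 elsewhere. The part of these cells in the low Efemp1 value was not tested.

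The remaining marker lists gave 0 called members between the sexes. Cartilage markers, led by Chad and Sox9, had a median between 2.51 and 2.76 per array. Chad stood far above the rest, with a mean of 10.10 at rank 52, against 4.13 for Sox9. Matn3 and Hapln1 lay below the median of each array. Smooth muscle and pericyte markers, led by Des and Rgs5, had a median between 3.95 and 4.53, and Des is also expressed in skeletal muscle. Schwann cell markers, led by Pmp22 and S100b, had a median between 2.38 and 2.80, with 5 of 8 measured. Among tendon cell markers, Col1a2 and Fmod had the highest mean signals.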
